A study of Canis lupus familiaris with 30 samples.

Results

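Transcripts of chemokines and chemokine receptors, 10 of the 32704 gene IDs measured, were examined in 30 RNA-seq libraries made from fine needle aspirates of enlarged lymph nodes of 15 dogs with lymphoma. Members were the gene IDs whose symbol is CCL, CXCL, XCL, CX3CL, CCR, CXCR, XCR or CX3CR followed directly by a number. The deposited matrices name genes by Ensembl gene ID alone, and a symbol could be given to 5084 of the 32704 gene IDs from the gene lists published with the study. Among these, 10 members were found: the receptors CCR6 (ENSCAFG00000030966), CXCR5 (ENSCAFG00000012439) and CX3CR1 (ENSCAFG00000031104), and the ligands CCL19 (ENSCAFG00000001954), CCL5 (ENSCAFG00000018171), CCL3 (ENSCAFG00000018167), CCL16 (ENSCAFG00000023226), CXCL10 (ENSCAFG00000008584), CXCL8 (ENSCAFG00000003029) and CX3CL1 (ENSCAFG00000008761). Other members of the family, such as CXCR4, CCR7 and CXCL13, had no symbol in the rows held here and were not analysed here. The lists were ordered by p-value and only their leading rows were held here, so that being named was not independent of the data. CXCL10, CCL5, CCL19 and CX3CR1 were named through a list ordered by the change over time in 9 of the dogs, and CCR6, CXCR5 and CCL3 through one for the other 6 dogs. CXCL8, CCL16 and CX3CL1 were named through lists that compared those sets of dogs. The labels do not say which dogs form these sets. They were taken here to be the 9 dogs whose counts follow their FPKM and the 6 dogs whose counts do not, described below, and this match was not tested.

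Each dog gave 1 library before treatment (initial) and 1 library 6 weeks into CHOP, the combination of cyclophosphamide, doxorubicin, vincristine and prednisone (six-week). The labels gave a B-cell immunophenotype for 7 dogs, a T-cell immunophenotype for 3 dogs and an unknown one for 5 dogs. No untreated dog was sampled, and an aspirate holds every cell of the node, so that fewer cells of a type and less RNA per cell cannot be told apart.

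Chemokines are small secreted or membrane-bound proteins that steer leukocytes along concentration gradients, and their receptors are G protein-coupled receptors on the responding cells. In lymph nodes, CXCR5 brings B cells and follicular helper T cells into follicles, CCL19 holds T cells and dendritic cells in the paracortex, and inflammatory ligands such as CCL5 and CXCL10 recruit activated T cells and natural killer cells. Lymphoma cells often keep receptors of the lymphocyte they derive from, while many of the ligands are made by the T cells, macrophages and stromal cells around them.

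Levels are given as FPKM, fragments scaled by transcript length and by the mapped reads of the library. Total counts per library were 4318394 to 43413353, with a median of 16327922 and the lowest in dog 036 at 6 weeks. The median was 19045310 in the initial and 13153569 in the six-week libraries. In 9 dogs the counts followed the FPKM of the same gene ID (Spearman's rho 0.880 to 0.983 across genes within a library), while in the 12 libraries of the other 6 dogs (024, 027, 028, 029, 030 and 035) they did not (rho 0.0868 to 0.117). FPKM was therefore the measure used throughout, and counts were used for the 9 dogs alone. A single library stood for each dog and timepoint, so that the spread reported is that between dogs. Of the 12 B-cell markers listed, PAX5 and CD22 had a gene ID, and of 17 T-cell markers 9 had one. Dog 038, labelled T-cell, had a PAX5 and CD22 sum of 134.7 FPKM and a T-cell marker sum of 47.7 FPKM in its initial library and of 47.5 and 129.0 FPKM in its six-week library, and dog 029, labelled B-cell, had T-cell marker sums of 570.2 and 706.3 FPKM. The initial markers of dog 038 go against its label, and those of dog 029, with PAX5 and CD22 sums of 63.8 and 26.2 FPKM, stand for both lineages. The T-cell against B-cell results, which rest on these dogs, are also given without them.

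CCR6, the receptor of CCL20 found on mature B cells and some T cells, was the most abundant member. Its mean was 41.5 FPKM ± 27.9 (SD, n = 30 libraries), its range 1.32 to 112.4 FPKM, and it was the highest of the 10 members in 18 of 30 libraries. CXCL10, an interferon-induced ligand of CXCR3, followed at 17.4 FPKM ± 28.8 with a range of 0.267 to 141.4 FPKM. CCL5, a ligand made by cytotoxic and memory T cells, had a mean of 14.7 FPKM ± 13.2 and was the highest member in 6 libraries. CXCR5 was present at 8.29 FPKM ± 5.0, below CCR6 in all 30 libraries. CCL19, a ligand of CCR7, had a mean of 5.36 FPKM ± 11.3 but a median of 1.44 FPKM, since 3 libraries of dogs 029 and 034 held 33.8 to 44.9 FPKM, and it was listed at 0 in 2 libraries. CX3CR1, the receptor of CX3CL1 on monocytes and cytotoxic lymphocytes, had a mean of 1.17 FPKM ± 1.0. These 6 members had a mean FPKM above 1 and were tested. Given as FPKM, these levels can be compared between genes, but the order of CXCL10 and CCL5, whose SDs are close to or above their means, was not resolved.

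The other 4 members lay at or below a mean of 1 FPKM. CXCL8, the neutrophil chemoattractant, had a mean of 0.839 FPKM and exceeded 1 FPKM in 7 libraries. CCL3, an inflammatory ligand made by macrophages and activated lymphocytes, had a mean of 0.658 FPKM, and CCL5 lay above it in all 30 libraries. CCL16 had a mean of 0.352 FPKM. CX3CL1, the membrane-bound ligand of CX3CR1, had a mean of 0.0920 FPKM, was listed at 0 in 10 libraries and exceeded 1 FPKM in none.

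**Figure D1:**
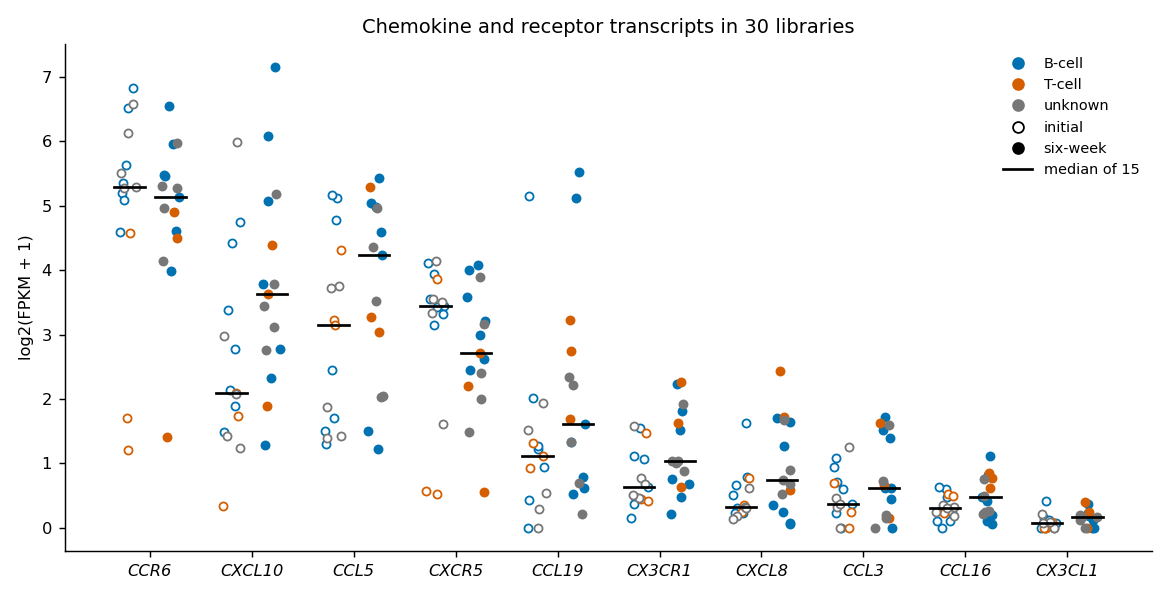
Level of each of the 10 members, as log2(FPKM + 1), in the initial (open points) and six-week (filled points) libraries of 15 dogs, colored by immunophenotype label, with the median of 15 dogs as a bar. CCR6 sits highest, with 3 T-cell libraries far below the rest, and the 4 rightmost members stay low at both timepoints.

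The first comparison asked how the receptors differed between immunophenotypes before treatment. In the 7 B-cell dogs, initial CCR6 had a lowest value of 23.2, a median of 39.8 and a highest value of 112.4 FPKM. The 3 T-cell dogs had 2.24 FPKM (dog 028), 1.32 FPKM (dog 036) and 22.8 FPKM (dog 038). The groups did not overlap, although dog 038 came within a small margin of the lowest B-cell dog, which was dog 029. CCR6 was lower in T-cell dogs by 3.11 on the log2(FPKM + 1) scale (T-cell minus B-cell -3.11, SE 0.62, 95% CI -4.43 to -1.78), and its Benjamini-Hochberg adjusted p over the 14257 genes tested with limma was 0.0501, just short of the threshold of 0.05. The exact permutation test of this member alone, two-sided over 120 splits of 3 against 7 dogs, gave p = 0.00833, the smallest it can give. This was 1 of 12 such tests over the tested members and timepoints, and its p is not adjusted for them. At this threshold 42 of 14257 genes were called (0.295%), 14 higher (0.0982%) and 28 lower (0.196%) in T-cell dogs, and 0 of the 6 members tested were among them, with 3085 genes and 2 members under an unadjusted p of 0.05.

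CXCR5, the receptor of CXCL13, went the same way. Its initial values were 7.87, 9.87 and 16.2 FPKM (lowest, median, highest) in B-cell dogs. They were 0.439 FPKM in dog 028, 0.484 FPKM in dog 036 and 13.6 FPKM in dog 038. A pair of T-cell dogs thus lay far below every B-cell dog, and dog 038 lay inside the B-cell range. The difference was -1.91 (SE 0.62, 95% CI -3.23 to -0.59, limma adjusted p = 0.108), and the exact permutation test gave p = 0.05, again unadjusted.

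Both differences turned on single dogs. Without dog 038, whose initial markers go against its label, CCR6 differed by -4.15 (SE 0.51, limma adjusted p = 1.19e-04) and CXCR5 by -3.02 (SE 0.47, adjusted p = 8.18e-04), and 2 of 6 members and 2234 of 14257 genes (15.7%) were called. Leaving out dogs 029 and 038 together, a setting added once the values had been seen, gave -4.31 for CCR6 (SE 0.48, adjusted p = 4.87e-05) and -3.09 for CXCR5 (SE 0.48, adjusted p = 7.59e-04), with 2 of 6 members and 3391 genes (23.8%) called. CCR6 was the only member called without dog 029 (1164 genes called, 8.16%), and also with quantile normalization (0.4% of genes), median scaling (0.568%), a mean-variance trend (0.344%) or a term for counts that follow FPKM (0.554%). Without dog 036, CCR6 differed by -2.47 (adjusted p = 0.315) and CXCR5 by -1.35 (adjusted p = 0.511), and without dog 028 the adjusted p of CCR6 was 0.185. Initial PAX5 and CD22 sums moved with these receptors: 63.8 to 221.0 FPKM in B-cell dogs, against 4.95, 1.42 and 134.7 FPKM in T-cell dogs 028, 036 and 038. Dog 038 was singled out by its PAX5 and CD22 sum, with which these receptors moved. A wider difference without it could thus be foreseen. Dog 029 was singled out by its T-cell marker sum and held the lowest initial CCR6 and CXCR5 of the B-cell dogs, so the same holds for it. The p-values without dog 038, without dog 029 or without both are a description. The part of B-cell content in the difference was not tested.

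None of the 4 other tested members passed the test between the labels before treatment, and their intervals were wide. CXCL10 had values of 2.34, 0.267 and 3.25 FPKM in T-cell dogs 028, 036 and 038, against 1.79, 5.84 and 25.9 FPKM (lowest, median, highest) in B-cell dogs, and the groups overlapped (-1.59, 95% CI -3.55 to 0.37, limma adjusted p = 0.318), an interval that holds the CXCR5 value. Intervals for the remaining members were -2.18 to 1.27 for CCL19, -1.53 to 2.36 for CCL5 and -0.70 to 0.72 for CX3CR1, widest for CCL19 and CCL5. The 5 unknown dogs lay within the B-cell range of CCR6, with initial values of 37.7 to 94.7 FPKM, all above the 3 T-cell dogs. CXCR5 was 9.07 to 16.7 FPKM in 4 of them and 2.05 FPKM in dog 035, whose CCR6 was 44.6 FPKM. Between unknown and B-cell dogs, 0 of 6 members and 0 of 14257 genes were called with limma (0%; 408 genes under an unadjusted p of 0.05), with a CCR6 difference of 0.16 (95% CI -0.97 to 1.28).

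At 6 weeks both receptors overlapped between T-cell and B-cell dogs, as CXCR5 already had before treatment. CCR6 was 1.66 FPKM in dog 028, 28.9 FPKM in dog 036 and 21.7 FPKM in dog 038, against 14.9, 43.1 and 93.1 FPKM (lowest, median, highest) in B-cell dogs. CXCR5 was 0.472, 5.56 and 3.62 FPKM in the same 3 dogs, against 4.49, 8.27 and 15.9 FPKM. Dog 028 alone still stood clearly below the B-cell range for both receptors. The differences were -1.70 for CCR6 (95% CI -3.11 to -0.30, limma adjusted p = 0.548) and -1.45 for CXCR5 (95% CI -2.60 to -0.31, limma adjusted p = 0.538), and 0 of 6 members and 0 of 14257 genes (0%) were called, with 1237 genes and 2 members under an unadjusted p of 0.05. The exact permutation test gave p = 0.0583 for CCR6 and p = 0.0333 for CXCR5, the latter below its initial value of 0.05. These p-values are not adjusted for the 12 such tests. Leaving out dogs 028, 029, 036 and 038 in turn moved CCR6 between -2.35 (without dog 036) and -0.61 (without dog 028). CXCR5 moved between -1.89 and -0.82 for the same dogs. The other B-cell dogs were not left out. Without dogs 029 and 038, CCR6 differed by -2.37 (limma adjusted p = 0.264) and CXCR5 by -1.75 (adjusted p = 0.329), and again 0 members were called.

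**Figure D2:**
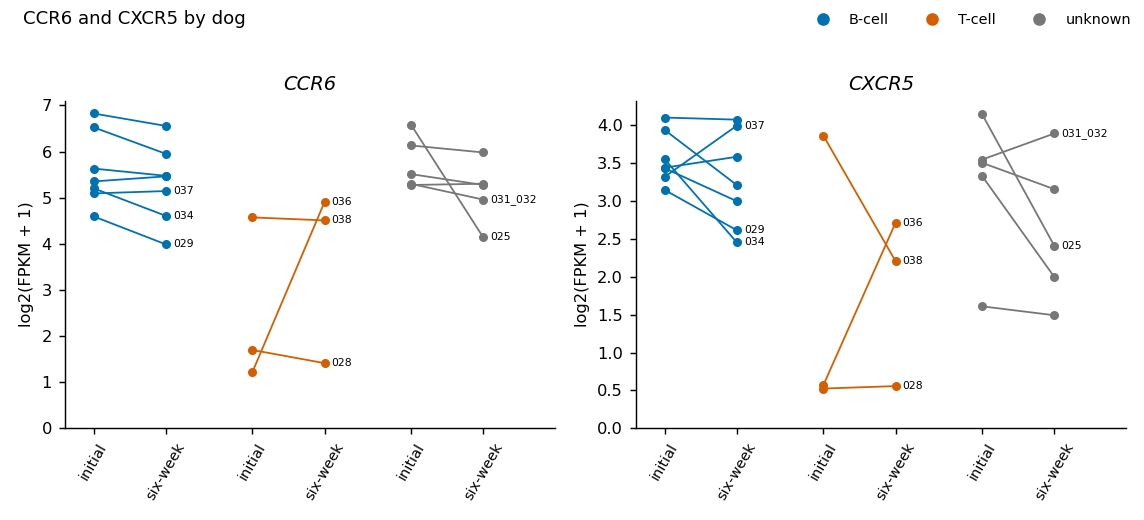
CCR6 (left) and CXCR5 (right) as log2(FPKM + 1) in the initial and six-week library of each dog, joined by a line, for 7 B-cell, 3 T-cell and 5 unknown dogs, with selected dogs numbered. Dog 028 is low at both timepoints, dog 036 moves from the bottom into the range of the other dogs, and CXCR5 of dog 038 moves down.

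The second comparison asked how the members changed between the initial and the six-week library of the same dog. Over all 15 dogs, limma with the dog as a block called 0 of 6 members and 0 of 14257 genes (0%) at an adjusted p of 0.05, while 4 members and 1823 genes had an unadjusted p under 0.05. Those 4 members, CXCL10, CX3CR1, CCL5 and CCL19, all had positive values, and for the 9 dogs through whose change they were taken to have been named this is a description. The 6 other dogs are therefore given separately.

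CXCL10 had initial values of 0.267, 3.25 and 62.8 FPKM (lowest, median, highest of 15 dogs) and six-week values of 1.45, 11.4 and 141.4 FPKM. It was above 10 FPKM in 3 dogs before treatment and in 8 dogs at 6 weeks, and it was higher at 6 weeks in 13 of 15 dogs. The widest moves were from 5.84 to 141.4 FPKM in dog 037 and, the other way, from 62.8 to 12.8 FPKM in dog 031_032. The mean change was 1.20 on the log2(FPKM + 1) scale (SE 0.37, 95% CI 0.41 to 1.98, limma adjusted p = 0.286). In the 6 dogs taken to lie outside the naming list, all 6 were higher at 6 weeks, with a mean change of 1.19 ± 0.94 (SD, n = 6, exact sign-flip permutation p = 0.0312, two-sided and the smallest that 6 dogs allow, limma adjusted p = 0.831). This permutation p is not adjusted for the same tests of CCL5, CCL19 and CX3CR1 given below.

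CCL5 had initial values of 1.47, 7.84 and 34.8 FPKM and six-week values of 1.35, 17.8 and 42.3 FPKM (lowest, median, highest of 15 dogs). It was higher in 10 of 15 dogs, most in dogs 034 (2.26 to 23.2 FPKM), 025 (2.68 to 19.5 FPKM) and 038 (7.84 to 38.2 FPKM), and it went from 18.9 to 8.66 FPKM in dog 036. The mean change was 0.71 (SE 0.27, 95% CI 0.14 to 1.28, limma adjusted p = 0.320), and 3 of the same 6 dogs were higher (mean 0.37 ± 0.76, exact permutation p = 0.312).

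CCL19 had a median of 1.18 FPKM initially, with a range of 0 to 34.7 FPKM, and a median of 2.06 FPKM at 6 weeks, with a range of 0.162 to 44.9 FPKM. Dog 034 went from 1.34 to 44.9 FPKM, whereas dog 029 held 34.7 and 33.8 FPKM. The 3 T-cell dogs went from 1.18 to 2.21 FPKM (dog 028), from 0.901 to 5.73 FPKM (dog 036) and from 1.48 to 8.35 FPKM (dog 038). CCL19 was higher in 11 of 15 dogs, with a mean change of 0.75 (SE 0.30, 95% CI 0.12 to 1.38, limma adjusted p = 0.328). In the same 6 dogs the mean change was 0.29 ± 0.50 (4 of 6 higher, exact permutation p = 0.250).

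CX3CR1 had initial values of 0.109, 0.549 and 1.98 FPKM and six-week values of 0.155, 1.05 and 3.78 FPKM (lowest, median, highest). It was higher in 13 of 15 dogs, with a mean change of 0.43 (SE 0.14, 95% CI 0.13 to 0.73, limma adjusted p = 0.299). In the same 6 dogs, 4 were higher and 2 lower, with a mean change of 0.14 ± 0.49 (exact permutation p = 0.531). CX3CR1 passed the filter on low values through its six-week libraries (mean 1.54 FPKM, against 0.807 FPKM initially), so that its change bears on its being tested at all. The pseudocount of 1 compresses changes of a gene at this level.

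**Figure D3:**
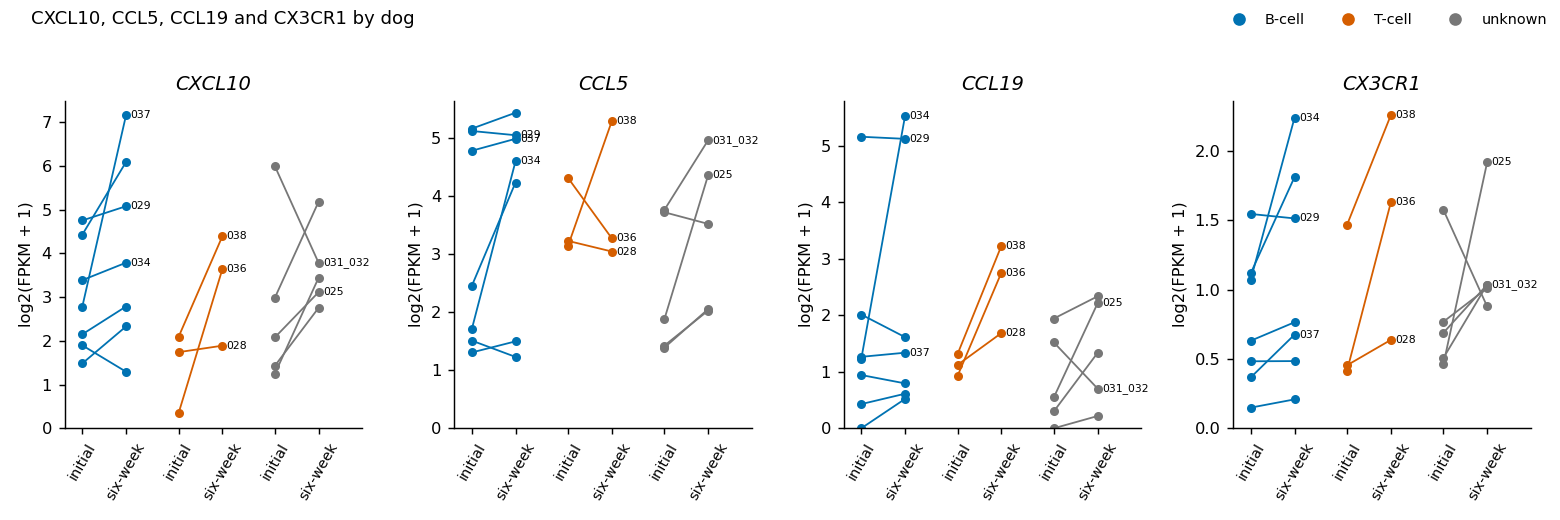
CXCL10, CCL5, CCL19 and CX3CR1 as log2(FPKM + 1) in the initial and six-week library of each dog, joined by a line and grouped by immunophenotype label, with selected dogs numbered. CXCL10 lines slope up in 13 of 15 dogs, and CCL19 is high at both timepoints in dog 029 but at 6 weeks alone in dog 034.

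The receptors of B cells showed no common change. CCR6 was lower at 6 weeks in 11 of 15 dogs, but dog 036 went from 1.32 to 28.9 FPKM, and the mean change was -0.12 (SE 0.29, 95% CI -0.73 to 0.48, limma adjusted p = 0.892). Without dog 036 the mean change was -0.40 (SE 0.16, limma unadjusted p = 0.0246, adjusted p = 0.303). In the 6 dogs through whose list CCR6 was taken to have been named, all 6 were lower, with a mean change of -0.28 ± 0.17, and of the 9 other dogs 5 were lower and 4 higher, with a mean change of -0.016. CXCR5 was lower in 10 of 15 dogs (mean -0.31, SE 0.24, 95% CI -0.81 to 0.18, limma adjusted p = 0.597), with its widest falls in dogs 025 (16.7 to 4.32 FPKM) and 038 (13.6 to 3.62 FPKM) and a move from 0.484 to 5.56 FPKM in dog 036.

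By immunophenotype, 0 of 6 members and 0 of 14257 genes (0%) were called in the change of B-cell dogs, of T-cell dogs or of unknown dogs, with 545, 2850 and 693 genes under an unadjusted limma p of 0.05. The counts in T-cell dogs turned on single dogs. Without dog 028, 759 of 14257 genes were called higher and 698 lower, with 4188 under an unadjusted p of 0.05. Of the 6 members 0 were then called and 4 had an unadjusted p under 0.05. Without dog 036, 0 genes were called and 1079 had an unadjusted p under 0.05, with 0 members among them. CXCL10 changed by 1.09 (95% CI -0.10 to 2.29) in 7 B-cell dogs, 1.91 (95% CI 0.09 to 3.74) in 3 T-cell dogs and 0.91 (95% CI -0.51 to 2.32) in 5 unknown dogs. The intervals of the 3 groups overlapped. CCR6 changed by 1.11 (95% CI -0.11 to 2.34) in the T-cell dogs, a value that rested on dog 036 and was -0.18 without it, and CXCR5 changed by 0.17 (95% CI -0.96 to 1.3). The difference between the T-cell and the B-cell change was called for 0 of 6 members and 0 of 14257 genes (0%; 2163 genes under an unadjusted limma p of 0.05), and was 1.40 for CCR6 (95% CI -0.06 to 2.87, adjusted p = 0.341) and 0.46 for CXCR5 (95% CI -0.89 to 1.81, adjusted p = 0.731). Without dog 036 these were 0.12 and -0.53, and without dog 028 they were 2.1 and 0.53, with 318 genes called higher and 247 lower and 0 members.

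**Figure D4:**
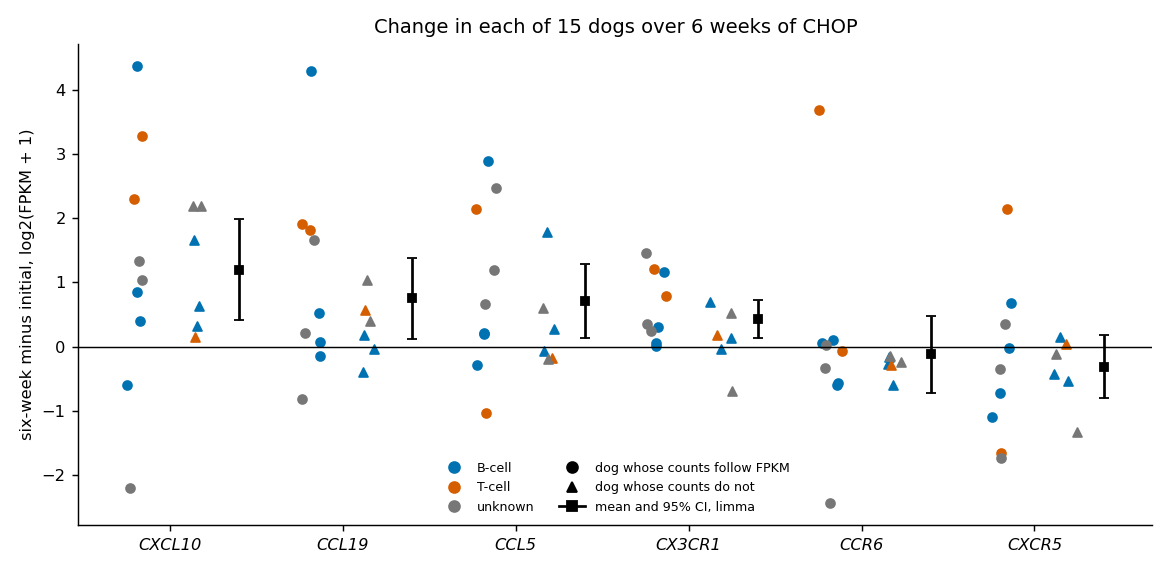
Six-week minus initial level, on the log2(FPKM + 1) scale, of the 6 tested members in each of 15 dogs, with the mean and 95% confidence interval from limma as a black square and bar. Circles are the 9 dogs whose counts followed their FPKM and triangles the 6 dogs whose counts did not; all 6 triangles lie above 0 for CXCL10 and below 0 for CCR6.

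The members below the filter are given as a description. CXCL8 went from a median of 0.245 FPKM to 0.666 FPKM and was higher in 12 of 15 dogs, with the highest six-week values in dogs 038 (4.41 FPKM), 036 (2.30 FPKM), 029 (2.27 FPKM) and 025 (2.18 FPKM). CCL16 was higher in 12 of 15 dogs (median 0.239 to 0.397 FPKM), CCL3 in 7 of 15, with 6 lower (median 0.300 to 0.538 FPKM), and CX3CL1 in 9 of 15 (median 0.0558 to 0.120 FPKM). With the filter lowered to a mean of 0.1 FPKM, limma called 2339 of 28603 genes (8.18%), 2313 of them higher at 6 weeks, and 0 of 9 members. The nearest were CXCL10 (adjusted p = 0.0542), CXCL8 (change 0.49, adjusted p = 0.0592) and CX3CR1. The median change over these 28603 genes was 0.12, beside -0.0058 over the 14257 genes of the main filter. Genes at low levels thus moved up in general, and the cause was not tested. Mean changes were 0.49 for CXCL8, 0.28 for CCL3, 0.17 for CCL16 and 0.068 for CX3CL1.

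Read counts were available to the same purpose in the 9 dogs whose counts followed FPKM. There, edgeR's quasi-likelihood test called 0 of 7 members and 0 of 16880 genes (0%; 4239 genes under an unadjusted p of 0.05), while DESeq2 called 2808 genes (16.6%), 2366 of them higher (14%) and 442 lower. The 4 of 7 members that DESeq2 called were CX3CR1 (1.25, SE 0.30, adjusted p = 0.00164), CCL19 (2.07, SE 0.63, adjusted p = 0.0119), CCL5 (1.08, SE 0.40, adjusted p = 0.0465) and CXCL8 (1.44, SE 0.54, adjusted p = 0.0498), all higher at 6 weeks. CX3CR1, CCL19 and CCL5 had been named through this very contrast, so their calls are not independent of the choice, and the call of each of the 4 depended on the tool.

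Summed markers of other cell types were compared in the same libraries. In the change over all dogs 0 genes of any marker list were called, beside 0 of 14257 genes (0%). The markers had a symbol through the same lists ordered by p-value, in part for the change over time, so changes of their sums are a description. The summed FPKM of 5 of 12 macrophage and monocyte markers (CSF1R, MRC1, C1QA, C1QB and VSIG4) ranged from 7.95 to 104.1 with a median of 26.9 initially, and from 5.96 to 328.9 with a median of 32.6 at 6 weeks. It went from 15.1 to 185.4 FPKM in dog 025, from 26.9 to 163.7 FPKM in dog 034, from 8.50 to 98.8 FPKM in dog 036 and from 82.3 to 328.9 FPKM in dog 038. These are the 4 dogs with the widest upward changes of CX3CR1, while the sum was lower at 6 weeks in 6 other dogs. The sum of 2 neutrophil markers (S100A8 and CSF3R) also went from 3.6 to 154.8 FPKM in dog 025, from 4.2 to 58.2 FPKM in dog 034 and from 23.5 to 132.0 FPKM in dog 038, but stayed below 1 FPKM in dog 036. The endothelial sum went from a median of 15.1 to 35.7 FPKM. The sum of 4 of 9 NK and cytotoxic markers went from a median of 8.01 to 25.6 FPKM, and the sum of 9 T-cell markers from a median of 53.8 to 81.9 FPKM (higher in 8 of 15 dogs). The PAX5 and CD22 sum went the other way, from a median of 101.0 to 64.5 FPKM, and was lower in 12 of 15 dogs and higher in 3. In dog 036, where it was higher, the PAX5 and CD22 sum went from 1.42 to 38.1 FPKM and the T-cell marker sum from 949.6 to 315.3 FPKM.

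Across the 15 dogs, the change of each tested member was set against the change of the B-cell, T-cell and macrophage sums, 18 relations in all. The change of CXCR5 followed that of PAX5 and CD22 (Pearson's r = 0.88, permutation p = 1e-05, the smallest the permutations can give, Benjamini-Hochberg adjusted 0.00018; Spearman's rho = 0.79, p = 0.00063, adjusted 0.0113), and r was 0.72 without the 2 dogs farthest from the median. For CCR6 the same relation had r = 0.88 (p = 0.00092, adjusted 0.00552) but rho = 0.49 (p = 0.0669, adjusted 0.172) and r = 0.25 without those 2 dogs, so that it rested on them. Both receptors moved against the T-cell sum. CCR6 had r = -0.75 (permutation p = 0.00439, adjusted 0.0113), rho = -0.64 (p = 0.0122, adjusted 0.055) and r = -0.64 without 2 dogs. CXCR5 had r = -0.72 (permutation p = 0.0036, adjusted 0.0108), rho = -0.61 (p = 0.0185, adjusted 0.0665) and r = -0.64 without 2 dogs. The change of CX3CR1 followed the macrophage sum (r = 0.78, p = 0.00062, adjusted 0.00552; rho = 0.71, p = 0.00361, adjusted 0.0325; r = 0.58 without 2 dogs), and so did that of CCL19 (r = 0.70, p = 0.00279, adjusted 0.01; rho = 0.65, p = 0.0109, adjusted 0.055; r = 0.72 without 2 dogs). CCL5 moved with the T-cell sum by r = 0.71 (p = 0.00277, adjusted 0.01), with rho = 0.52 (p = 0.0497, adjusted 0.149) and r = 0.44 without 2 dogs. CXCL10 had no such relation in these data, with r of 0.38, -0.14 and 0.24 for the B-cell, T-cell and macrophage sums (permutation p = 0.167, 0.617 and 0.388). All values of a dog come from the same 2 libraries, and the part of cell composition in the changes was not tested. The tested members had been named through lists ordered by the change over time, and the markers in part through the same lists. The p-values of these relations are therefore a description.

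**Figure D5:**
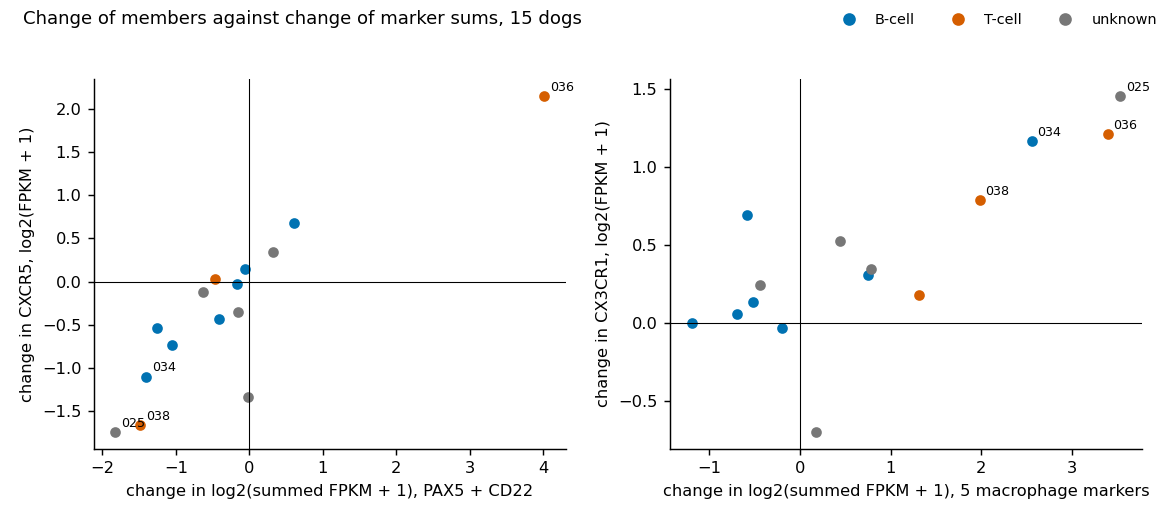
Change of CXCR5 against the change of the PAX5 and CD22 sum (left) and of CX3CR1 against the change of the macrophage and monocyte marker sum (right), each point a dog and both axes on a log2 scale after adding 1 to FPKM. Dogs 025, 034, 036 and 038, which are numbered, take the right end of the macrophage axis, and dog 036 stands alone at the right of the B-cell axis.

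Initial and six-week levels of a dog were related for CCL5 and CCR6, with weaker or less stable relations for the other 4. Of 6 relations of log2(FPKM + 1) over 15 dogs, the closest was that of CCL5 (r = 0.68, permutation p = 0.00612, adjusted 0.0313; rho = 0.74, p = 0.00234, adjusted 0.014; r = 0.59 without the 2 dogs farthest from the median). CCR6 had r = 0.66 (p = 0.0171, adjusted 0.0313), rho = 0.68 (p = 0.00761, adjusted 0.0228) and r = 0.60 without 2 dogs. CCL19 had r = 0.63 (p = 0.0187, adjusted 0.0313) and rho = 0.59 (p = 0.0236, adjusted 0.0354), but r = 0.29 without 2 dogs, so that it rested on them. CXCR5 had r = 0.60 (p = 0.0209, adjusted 0.0313) but rho = 0.36 (p = 0.191, adjusted 0.191), with r = 0.48 without 2 dogs. CXCL10 had r = 0.47 (p = 0.0795, adjusted 0.0795) and rho = 0.63 (p = 0.0148, adjusted 0.0296), with r = 0.59 without 2 dogs. CX3CR1 had r = 0.53 (p = 0.045, adjusted 0.054) and rho = 0.50 (p = 0.0617, adjusted 0.0741), with r = 0.75 without 2 dogs.

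Other genes of the pathway were described by their counts. Of 7 atypical receptors and platelet chemokines, 5 had a gene ID and 4 were tested, and of 26 signal transduction genes and 19 inducers, 11 and 6 were tested. In every comparison made here 0 of these were called. Over all 14257 genes the share called was also 0%, except between T-cell and B-cell dogs before treatment (42 genes, 0.295%). For the change over all dogs the median was 0.23, 0.43 and 0.25 on the log2(FPKM + 1) scale for the 3 lists, beside -0.0058 over all 14257 genes. The genes of the 3 lists had a symbol only through rows ordered by p-value, in part for the change over time. The 14257 genes were not chosen in this way, so the list medians are a description. RGS1, a brake on chemokine receptor signaling in lymphocytes, changed by 1.05 (SE 0.35, limma adjusted p = 0.299), and S1PR1, the receptor for lymphocyte exit from the node, by -0.95 (SE 0.32, limma adjusted p = 0.299). DPP4, a protease that trims CXCL10 and other chemokines, had a T-cell minus B-cell value of 3.06 before treatment (SE 0.88, limma adjusted p = 0.0851).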

How the data were processed

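The authors aligned single-end reads with HISAT2 2.1.0 to CanFam3.1 and assembled transcripts with StringTie 1.3.3, per the labels and the study's methods. The deposited FPKM values correct for transcript length and depth and are on a linear scale. Libraries still differed in level. Their median over genes with a mean FPKM above 1 ranged from 2.51 to 3.33 on the log2(FPKM + 1) scale. In dog 033 it was 3.02 initially and 2.51 at 6 weeks. The main tests did not adjust for this, and changes of single dogs can hold part of it. The deposited read counts are raw, without scaling. No genome or protein sequence of this build was used here.

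Genes with a mean FPKM above 1 over 30 libraries (14257 of 32704) were tested on log2(FPKM + 1) with limma 3.58.1 in R 4.3.3, with Benjamini-Hochberg adjustment over all of them and a threshold of 0.05. Changes over time had the dog as a block. Libraries were paired by the dog's number in the title, and dog 031_032, whose numbers differ, by elimination. The 2 libraries of a dog deviated together with a median correlation of 0.601 across genes (lowest -0.114, 14 of 15 dogs above 0.1, 0.344 for dog 031_032, 9 of 15 closest to their own partner). No 2 libraries of a group were copies (chi-square divided by its degrees of freedom at least 49.6 in 68 pairs). Counts of 9 dogs were tested with edgeR 4.0.16 and DESeq2 1.42.0. Python 3.11.15 with SciPy 1.17.1 was used for exact permutation tests and for correlations with 100000 permutations, all two-sided.

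The members, gene lists and named genes were chosen with earlier results of these data known. Every member found was to be reported, those with a mean FPKM above 1 with group values. On simulated data limma recovered 87% of 2-fold and 100% of 4-fold changes over time in all dogs, 19% and 72% in T-cell dogs, 18% and 60% for the difference in change, and 15% and 71% between T-cell and B-cell dogs initially. The changed genes were drawn at random, and the simulated noise was independent between genes and libraries. These rates therefore need not hold for the members, whose spread between dogs was often wide. Alternatives were other pseudocounts, filters, scalings, a mean-variance trend, no block, and left-out dogs. The dogs left out 1 at a time were chosen ones, not every dog. Between T-cell and B-cell dogs they were 028, 029, 036 and 038. For the change over all dogs they were 029, 031_032, 036 and 038, so that dogs with wide changes such as 034 and 037 were always kept. The published gene lists were used only for symbols.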

Additional observations from a re-analysis of the deposited data

Results flagged for a closer look

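In groups of 5 or 7 dogs, a value was singled out where its gap to the nearest other dog was large for the group's range (Dixon's 95% critical value). Of 52 groups examined, 8 had such a value, where chance gives about 1 in 20. All values are on the log2(FPKM + 1) scale. Among the 7 B-cell dogs, dog 029 had the initial CCL19 value of 5.16 (median 1.22) and the initial CXCL8 value of 1.63 (median 0.51), and it is the dog with a high T-cell marker sum beside a B-cell label. Dog 034 had a CCL19 change of 4.3 (median 0.07), and dog 030 had an initial CX3CL1 value of 0.42 (median 0.08), a transcript near 0 in every library. Among the 5 unknown dogs, dog 025 had a CCR6 change of -2.44 (median -0.24) and a six-week CX3CR1 value of 1.92 (median 1.04). Dog 024 had an initial CX3CR1 value of 1.58 (median 0.69), and dog 031_032 a CXCL10 change of -2.21 (median 1.33). Dogs 025 and 034 are also among the 4 dogs with the widest upward changes of the macrophage marker sum. No member's change took one sign in every dog of one immunophenotype and the opposite sign in every dog of another.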

How the results depend on the processing

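The count of members called, 0 in each comparison, was the same in 102 of 110 alternatives. Over all dogs it was 4 with DESeq2 on the counts of 9 dogs. Between T-cell and B-cell dogs before treatment it was 1 (CCR6) with quantile normalization, median scaling, a mean-variance trend or a term for counts that follow FPKM, and 2 without dogs 029 and 038. Leaving out 1 of dogs 028, 029, 036 and 038 gave 0 to 2, and the other B-cell dogs were not left out. CCR6 had adjusted p-values of 0.0467, 0.0498, 0.0445 and 0.0480 for quantile normalization, median scaling, the trend and the added term, in this order. It was 0.0164 without dog 029, which is a description. Over its alternatives the adjusted p ranged from 4.87e-05 to 0.315. Of 260 values of single members, 239 kept direction and side of the threshold, 12 passed it and 9 changed sign; none of those 9 had been called. For T-cell minus B-cell before treatment these were CCL19, which ranged from -0.55 to 0.14 when 1 of dogs 028, 029, 036 and 038 was left out and was 0.045 without dogs 029 and 038, and CX3CR1, which ranged from -0.33 to 0.19, was -0.012 with median scaling and -0.20 without both dogs. In T-cell dogs over time, leaving out 1 dog moved CCR6 between -0.18 and 1.81 and CXCR5 between -0.81 and 1.09, with the lowest values without dog 036, and CXCR5 was -0.070 with quantile normalization. The CXCR5 difference in change ranged from -0.53 to 1.37. The causes were not tested. Without the replicate block, which treats the paired libraries as separate, the CXCL10 change of 1.20 had an SE of 0.54 and 0 members were called in every comparison over time. Leaving out dog 036 gave 1 called gene, not a member, over all dogs. With 3 T-cell dogs most 2-fold differences could not be seen.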
